A study of Mus musculus with 9 samples.

Results

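The genes described here encode 37 secreted signalling proteins of the immune system: chemokines, cytokines and colony-stimulating factors. They were taken as a named list, matched by symbol to their Ensembl gene identifiers, and make up 37 of the 54838 genes in the deposited count table. RNA was sequenced from a mouse metastatic pancreatic ductal adenocarcinoma line, PDA530 Met. The cells came from a hepatic metastasis; the donor was male and of the KPC model, a genetically engineered mouse model of pancreatic cancer, on a mixed 129/SvJae/C57Bl/6 background. There were 3 groups of 3 libraries. The knockout group was a single-cell clone, E4, in which Zdhhc20, encoding a protein palmitoyltransferase, had been edited with CRISPR/Cas9. The control group was a single-cell clone, C5, that received the same guide RNAs, was left unedited and expresses Zdhhc20. The third group was the uncloned parental line, which the series' design text writes as PDA50 Met. All groups were grown in serum-containing medium and harvested untreated. Each genotype of the clones is represented by 1 clone, so an effect of losing Zdhhc20 and a property of that clone cannot be told apart. The labels call the 3 libraries of a group biological replicates without saying how their cultures were separated, so p-values measure the spread between these libraries.

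Chemokines are small secreted proteins that draw leukocytes along a gradient by engaging G protein-coupled receptors. Those of the ELR CXC class attract neutrophils, and most CC chemokines attract monocytes, lymphocytes or dendritic cells. Colony-stimulating factors promote the production, survival and activation of myeloid cells, and in pancreatic carcinoma the tumour cells themselves are a known source of neutrophil-attracting chemokines and of granulocyte-macrophage colony-stimulating factor. Cytokines of the IL-6 family, such as leukemia inhibitory factor, signal through the shared receptor chain gp130, encoded by Il6st, whereas IL-33 and IL-18 belong to the IL-1 family and are kept inside the cell as proteins until released.

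The 9 libraries held 16525869 to 23192701 estimated counts. Zdhhc20 stood at 37.5, 33.9 and 42.5 CPM (counts scaled to a common library size by the TMM method) in the knockout libraries against 123, 85.8 and 120 in the control clone and 75.3, 81.2 and 90.7 in the parental line. All knockout libraries were lower (knockout against control -1.53 on the log2 scale, SE 0.15, adjusted p = 6.97e-05; knockout against parental -1.12, SE 0.15, adjusted p = 0.000585; edgeR's quasi-likelihood test). Ductal keratins were abundant in every library, with summed levels of 8 carcinoma markers at 4410 to 4550 CPM in the knockout clone, 7290 to 9750 in the control clone and 6820 to 8300 in the parental line, although Epcam, an epithelial surface marker, stayed at 0.118 to 0.635 CPM. Markers of cells that could contaminate a culture were near 0: the summed level of 12 leukocyte markers was at most 1.34, 2.92 and 2.12 CPM in the 3 groups in that order, mostly from Cd68, with Cd3e, Adgre1 and Tyrobp at 0 in every library. The 9 fibroblast markers summed to at most 1.67, 2.94 and 4.19 CPM, with Dcn, Lum, Col1a2, Col3a1 and Thy1 at 0, and the 6 endothelial markers to at most 0.467, 0.577 and 0.353 CPM, with Emcn at 0. The control libraries varied most among themselves: control library 2 held 823 CPM of the ductal keratin Krt19 against 1660 and 1990 in control libraries 1 and 3. In a bulk sample, fewer cells making an RNA and less of it per cell cannot be told apart.

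Of the 37 genes, 18 reached a mean of 1 CPM in at least 1 group and 19 stayed below it in every group and are called silent here. No count was found in any library for 6 of the silent genes, Cxcl9, Cxcl12, Cxcl14, Cxcl15, Ccl5 and Il1b, which at these depths allows a level of up to 0.131 to 0.178 CPM (3 counts per library; counting error only). The other 13 had counts in at least 1 library. Among them were the inflammatory cytokines Tnf, Il6, Il1a, Il11 and Il23a, with highest group means of 0.152, 0.0393, 0.175, 0.268 and 0.0914 CPM. The epithelial alarmin gene Tslp reached 0.0373 CPM. Ccl2 and Ccl7, encoding monocyte attractants, reached 0.198 and 0.0321 CPM, and Cxcl2 and Cxcl11 reached 0.125 and 0.333 CPM. Ccl17, which encodes an attractant of Ccr4-bearing T cells and lies downstream of Cx3cl1 on chromosome 8, reached 0.622 CPM in the control clone, from 35 counts, while clone E4 had 3 counts and the parental libraries 13; it did not pass the filter on low counts. Il1a had 0 counts in the knockout clone, 9 in the control clone (0.357 CPM in library 2, 0.0436 and 0.105 in the others) and 10 in the parental line. With no filter on low counts, Ccl17 and Il1a were called lower in clone E4 than in clone C5 (edgeR adjusted p = 0.00547 and 0.0464), in a fit that called 22.6% of 25255 genes. Il1a was also called lower than in the parental line (adjusted p = 0.049), where that fit called 15.9%. Cxcl11 was then called higher in both clones than in the parental line (adjusted p = 0.0325 and 0.0321), from 17 and 20 counts against 2. Cxcl10 and Ccl9 came closest to the threshold, with highest group means of 0.838 and 0.974 CPM, and both passed the filter on low counts.

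Divided by exon length so that genes can be compared with each other, Mif stood highest by far, at 154 CPM per kb in the knockout clone, 137 in the control clone and 161 in the parental line. Mif encodes macrophage migration inhibitory factor, made by most cell types, and its counts are uncertain because the genome carries near-identical processed pseudogenes. Il33 came next in the parental line and the control clone, at 35 and 27.9 CPM per kb, followed by Clcf1 at 16.2 and 21.8. In the knockout clone this order differed. Cxcl5 stood second at 16.9 CPM per kb, above Il33 at 12.3, Clcf1 at 10.7 and Il34 at 10.2, and Csf2 at 7.33 and Lif at 5.81 stood beside Cx3cl1 at 5.63. In the control clone Csf2 and Lif had levels of 1.4 and 1.33 CPM per kb, against 2.63 and 1.48 in the parental line.

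**Figure D1:**
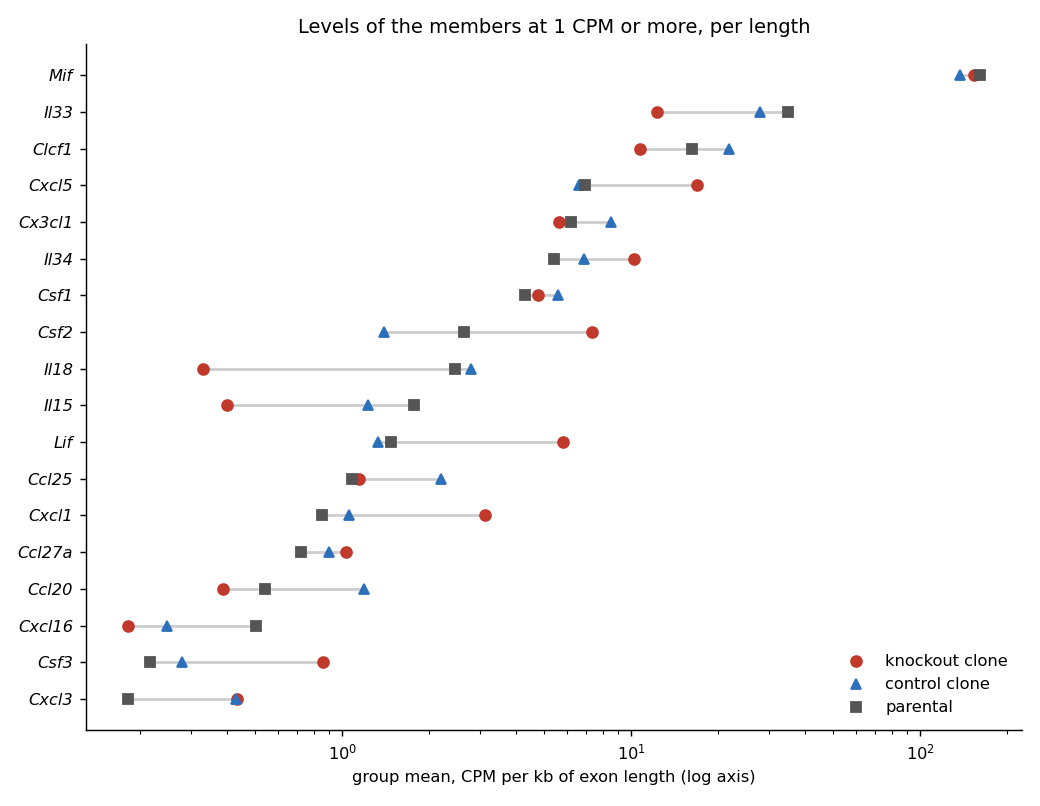
Group means of the 18 genes at 1 CPM or more, in CPM per kb of exon length on a log axis, with circles for the knockout clone, triangles for the control clone and squares for the parental line. Mif lies above 100 CPM per kb in each group, and the circles of Csf2, Lif, Cxcl1, Cxcl5 and Csf3 lie to the right of the other groups while those of Il18, Il15 and Il33 lie to the left.

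Between the knockout clone and the control clone, 11 of the 20 genes tested passed an adjusted p of 0.05. Higher in the knockout clone were 5 (Cxcl1, Cxcl5, Csf2, Csf3 and Lif) and lower were 6 (Cx3cl1, Ccl25, Il18, Il33, Clcf1 and Il15). This share was near the background, since 42.9% of all 13153 genes tested passed in that comparison, 18.7% higher and 24.2% lower. Of the 20 genes, 9 passed with a change of at least 1 on the log2 scale, against 1843 of all 13153 genes tested, or 14%. The median log2 fold change was -0.22 over the 20 genes and -0.02 over all genes tested. Against the parental line, 10 of 20 passed, with the same 5 genes higher and Cxcl16, Il18, Il33, Clcf1 and Il15 lower. The background there was 31.4%, with 13.1% higher and 18.3% lower, and the medians were 0.11 and -0.01. The 2 comparisons share the knockout libraries, so the genes called in both are not independent observations. Between the control clone and the parental line, 4 of 20 passed, all higher in the control clone (Cxcl10, Cx3cl1, Ccl25 and Clcf1), against a background of 21.4%, with 10.4% higher and 11% lower. The medians were 0.30 and 0.01. Csf3 passed the filter on low counts only where the knockout libraries were in the fit, and Cxcl10 failed it where only the parental line and 1 clone were fitted. Il18 passed it through the control and parental libraries, with 19 counts over the knockout libraries. Each of these genes was thus tested because of the groups in which it is high, and its call adds no support to these counts.

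**Figure D2:**
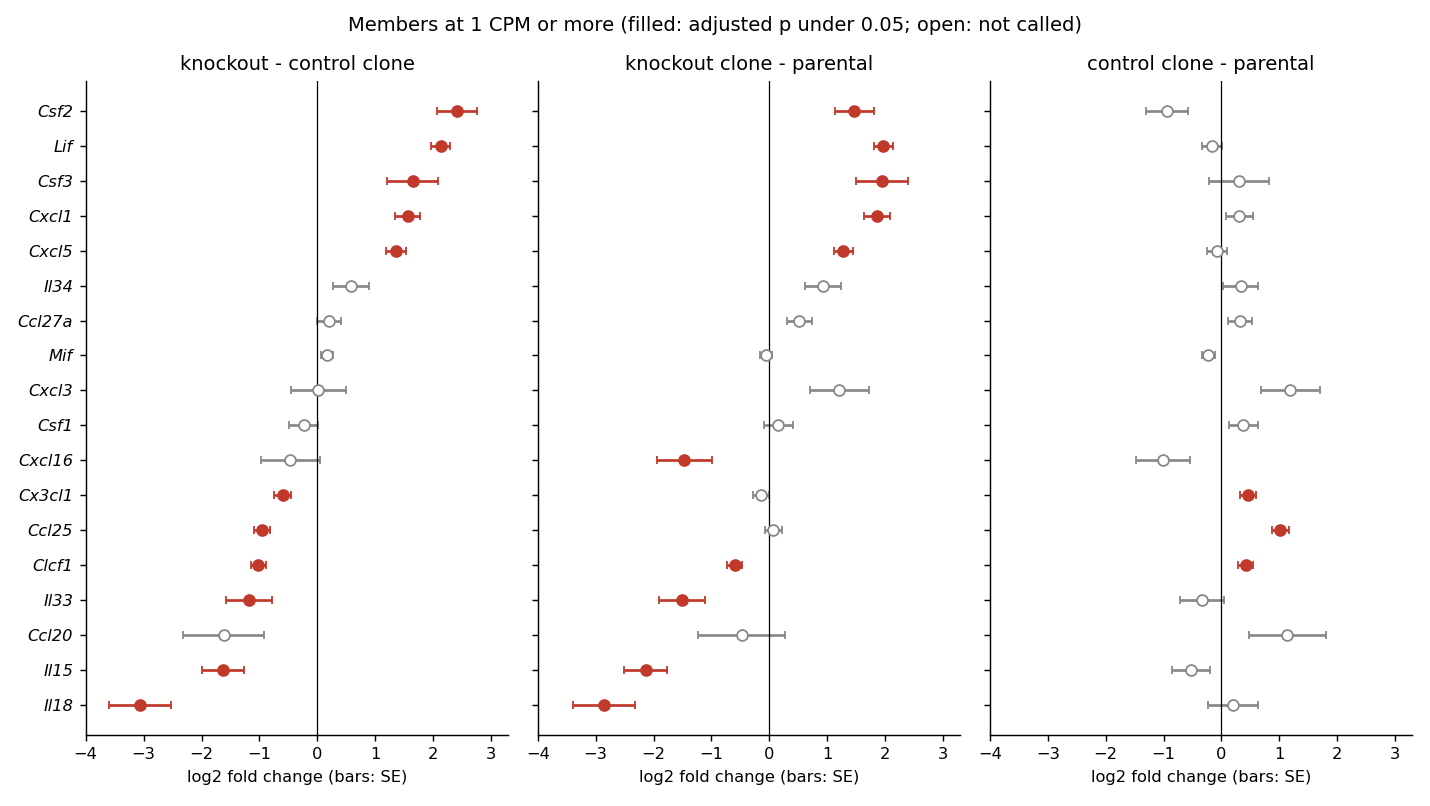
Log2 fold changes of the 18 genes at 1 CPM or more in the 3 comparisons, with bars for the standard error, filled points for adjusted p under 0.05 and open points for genes not called. Csf2, Lif, Csf3, Cxcl1 and Cxcl5 lie to the right of 0 in both knockout comparisons and are open in the panel that sets the control clone beside the parental line.

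Among the ELR CXC chemokines, which lie together on chromosome 5 and signal to neutrophils through Cxcr2, Cxcl1 and Cxcl5 rose in the knockout clone, Cxcl3 did not pass the test in any comparison, and Cxcl2 and Cxcl15 were silent. Upstream sequences of 3 of these neighbours are shown because they share a binding motif while only 1 of the 3 genes rose. They come from RefSeq on GRCm38.p6, where 25 of the 37 genes, and 12 of the 18 at 1 CPM or more, had an entry. Each is the 250 bases before the annotated start, at chr5:90890995-90891244 for Cxcl1, chr5:90903649-90903898 for Cxcl2 and chr5:90785851-90786100 for Cxcl3, all on the plus strand. Capitals mark matches to the NF-kappaB consensus on either strand.
Cxcl1: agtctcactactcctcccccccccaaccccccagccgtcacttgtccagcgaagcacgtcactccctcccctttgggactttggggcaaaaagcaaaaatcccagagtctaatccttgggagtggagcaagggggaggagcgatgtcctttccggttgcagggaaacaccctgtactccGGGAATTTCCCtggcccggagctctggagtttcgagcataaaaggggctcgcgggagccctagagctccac
Cxcl2: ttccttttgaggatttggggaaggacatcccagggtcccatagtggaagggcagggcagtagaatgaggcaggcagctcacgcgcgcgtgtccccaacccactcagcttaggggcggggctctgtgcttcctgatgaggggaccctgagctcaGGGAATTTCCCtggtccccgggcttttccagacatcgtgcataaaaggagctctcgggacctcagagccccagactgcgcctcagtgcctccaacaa
Cxcl3: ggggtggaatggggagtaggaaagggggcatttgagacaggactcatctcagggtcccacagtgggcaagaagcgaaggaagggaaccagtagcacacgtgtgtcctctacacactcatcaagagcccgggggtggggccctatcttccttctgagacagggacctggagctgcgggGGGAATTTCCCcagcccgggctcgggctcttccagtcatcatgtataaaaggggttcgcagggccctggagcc
All 3 carry the run GGGAATTTCCC, which matches the consensus on both strands in overlapping frames. Counting the base before the start as -1, it spans -71 to -61 in Cxcl1, -97 to -87 in Cxcl2 and -73 to -63 in Cxcl3. The consensus matched 7.25% of 32851 RefSeq promoters of that length on either strand, and a match is a description of the letters, not of binding. The binding motif of AP-1, TGANTCA, which reads the same on both strands, matched 6.75% of promoters and none of these 3.

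Cxcl1 (ENSMUSG00000029380, chr5:90891241-90893115, plus strand) encodes a ligand of Cxcr2. It was measured at 5.08, 5.62 and 6.77 CPM in the knockout libraries, 1.57, 1.9 and 2.47 in the control libraries and 1.49, 1.47 and 1.82 in the parental libraries. All 3 knockout libraries stood above all 6 others, and control and parental libraries overlapped. The level was 2.94-fold higher than in the control clone (log2 fold change 1.56, SE 0.22, adjusted p = 0.000514) and 3.64-fold higher than in the parental line (1.86, SE 0.23, adjusted p = 0.000367). Between the control clone and the parental line the difference of 0.31 (SE 0.24, adjusted p = 0.385) did not pass the test.

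Cxcl5 (ENSMUSG00000029371, chr5:90759360-90761624, plus strand), another neutrophil attractant, was the most abundant chemokine per length in the knockout clone. Its level was 33.4, 24.6 and 36.4 CPM there, 10.9, 11.2 and 14.7 CPM in the control clone and 14.3, 12.2 and 12.4 CPM in the parental line. The knockout libraries again lay above the other 6 without overlap. The rise was 2.56-fold over the control clone (log2 fold change 1.36, SE 0.17, adjusted p = 0.000284) and 2.43-fold over the parental line (1.28, SE 0.17, adjusted p = 0.000617). The control clone differed from the parental line by -0.08 (SE 0.17, adjusted p = 0.784).

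Cxcl3, another neutrophil attractant of the cluster, had means of 1.51 ± 0.639 CPM in the knockout clone, 1.5 ± 0.506 in the control clone and 0.635 ± 0.369 in the parental line (SD, n = 3). Both clones had higher means than the parental line, by log2 fold changes of 1.21 and 1.19, but neither passed the test (adjusted p = 0.0978 and 0.123, edgeR). Against the control clone the fitted difference was 0.02 (SE 0.47). Its receptor gene Cxcr2 reached at most 0.133 CPM as a group mean and Cxcr1 had no count in any library.

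Of the interferon-inducible CXC chemokines, which attract activated T cells through Cxcr3, Cxcl9 had no count and Cxcl10 and Cxcl11 were below 1 CPM in every group mean. Cxcl10 was measured at 0.488, 0.946 and 0.701 CPM in the knockout clone, 0.436, 1.61 and 0.472 in the control clone and 0.145, 0.236 and 0.177 in the parental line. Every library of either clone exceeded the 3 parental ones. The log2 difference from the parental line was 2.11 for the control clone (SE 0.65), or 1.27 without control library 2, and 1.91 for the knockout clone (SE 0.66). No test is given for these, since the gene entered the fit through the clones, in which it is high.

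Cx3cl1, encoding the membrane-bound chemokine fractalkine, and Cxcl16, encoding another chemokine with a transmembrane stalk, are both shed from the cell surface by the proteases Adam10 and Adam17. Cx3cl1 had means of 22.1 ± 1.61 CPM in the knockout clone, 33.5 ± 6.62 in the control clone and 24.4 ± 1.07 in the parental line (SD, n = 3). It fell by 0.60 on the log2 scale against the control clone (SE 0.14, adjusted p = 0.00726), while its difference from the parental line was -0.14 (SE 0.14, adjusted p = 0.484). The control clone itself was above the parental line by 0.46 (SE 0.14, adjusted p = 0.0434), a call lost in 13 of 17 alternative fits. Cxcl16 had means of 0.55 ± 0.287, 0.746 ± 0.43 and 1.53 ± 0.111 CPM in the same order. Knockout libraries were below the parental ones (log2 fold change -1.47, SE 0.48, adjusted p = 0.0414), but with knockout library 1, knockout library 2, control library 1 or any of the parental libraries left out the adjusted p rose to between 0.0611 and 0.142. Adam10 was also lower in the knockout clone, at 201 ± 2.97 CPM against 369 ± 66.9 in the control clone and 415 ± 22.5 in the parental line (SD, n = 3; adjusted p = 0.000476 and 0.000303). No values are given here for Adam17, the other protease named.

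Among the CC chemokines only 3 of 8 reached 1 CPM. Ccl25 (ENSMUSG00000023235, chr8:4325210-4360020, plus strand), known as an attractant of gut-homing lymphocytes, was measured at 9.03, 8.4 and 7.94 CPM in the knockout clone, 17.2, 18.1 and 13.6 in the control clone and 7.37, 8.96 and 7.88 in the parental line. The control libraries stood above the other 6, and the knockout and parental libraries overlapped. The log2 fold change was -0.95 for knockout against control (SE 0.14, adjusted p = 0.000621) and 1.02 for control against parental (SE 0.14, adjusted p = 0.0014). The difference between the knockout clone and the parental line was 0.07 (SE 0.14, adjusted p = 0.743). Its 5′ end overlaps that of Elavl1 on the other strand, a gene at 149 to 179 CPM as group means that passed in no comparison; whether the counting used strand is not given in the sources used here.

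Ccl20, which attracts Ccr6-bearing cells, had means of 0.548 ± 0.36 CPM in the knockout clone, 1.69 ± 1.59 in the control clone and 0.765 ± 0.204 in the parental line (SD, n = 3). The control mean rested on 1 library, at 3.52 CPM against 0.829 and 0.714 in the other two. The difference of -1.62 (SE 0.70) between the clones did not pass (adjusted p = 0.0853). It was -0.51 with adjusted p = 0.464 without control library 3, the high one, and -1.96 with adjusted p = 0.0281 without control library 2. It also passed with no filter on low counts (-1.6, adjusted p = 0.0437) and with the replicate block (-1.46, adjusted p = 0.0476). Ccl27a, a chemokine of skin-homing T cells, had means of 2.44 ± 0.169, 2.14 ± 0.303 and 1.71 ± 0.153 CPM and passed in no comparison; its counts are uncertain, because near-identical copies exist and its end overlaps Il11ra1. Ccl9 passed in no comparison either, with adjusted p between 0.304 and 0.821.

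The colony-stimulating factors and Il34 each reached 1 CPM in a group, Csf3 in the knockout clone alone. Csf2 and Csf3 were higher in the knockout clone, Csf3 with the limit on its filter given above. Csf2 (ENSMUSG00000018916, chr11:54247271-54249667, minus strand) encodes granulocyte-macrophage colony-stimulating factor. Its level was 4.88, 7.51 and 5.2 CPM in the knockout libraries, 0.655, 1.55 and 1.15 in the control libraries and 2.6, 1.41 and 2.29 in the parental libraries. All knockout libraries were above the others, the control and parental libraries overlapped, and control library 2 was the highest of its clone. The level was 5.31-fold higher than in the control clone (log2 fold change 2.41, SE 0.35, adjusted p = 0.000564), the largest rise among the 20 genes tested, and 2.77-fold higher than in the parental line (1.47, SE 0.33, adjusted p = 0.00816). The control clone was 0.94 below the parental line on the log2 scale, which did not pass the test (SE 0.36, adjusted p = 0.0923) but did without control library 2 (-1.24, adjusted p = 0.0341).

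Csf3, encoding granulocyte colony-stimulating factor, the main driver of neutrophil production, was rare in every library. It had 68 counts over the 3 knockout libraries, 22 over the control libraries and 17 over the parental ones, giving means of 1.21 ± 0.27, 0.393 ± 0.226 and 0.305 ± 0.113 CPM (SD, n = 3). The knockout libraries did not overlap the others. The log2 difference was 1.65 from the control clone (SE 0.44) and 1.95 from the parental line (SE 0.45), given without a test because the gene entered the fit through the knockout libraries.

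Csf1 and Il34 encode the alternative ligands of the macrophage receptor Csf1r. Csf1 had means of 25.2 ± 6.48 CPM in the knockout clone, 29.5 ± 10.1 in the control clone and 22.6 ± 2.72 in the parental line (SD, n = 3), with overlapping libraries and adjusted p between 0.31 and 0.684. Il34 was measured at 20.4, 21.1 and 18.5 CPM in the knockout clone, 8.42, 20.9 and 11 in the control clone and 13.3, 10.9 and 7.53 in the parental line. The knockout libraries were above the parental ones, while control library 2 lay within the knockout range. The difference from the parental line was 0.92 (SE 0.31) with adjusted p = 0.050024, just over the threshold and under it in 10 of 17 alternative fits. That from the control clone was 0.58 (SE 0.31) with adjusted p = 0.154, or 1.05 with adjusted p = 0.0024 without control library 2.

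**Figure D3:**
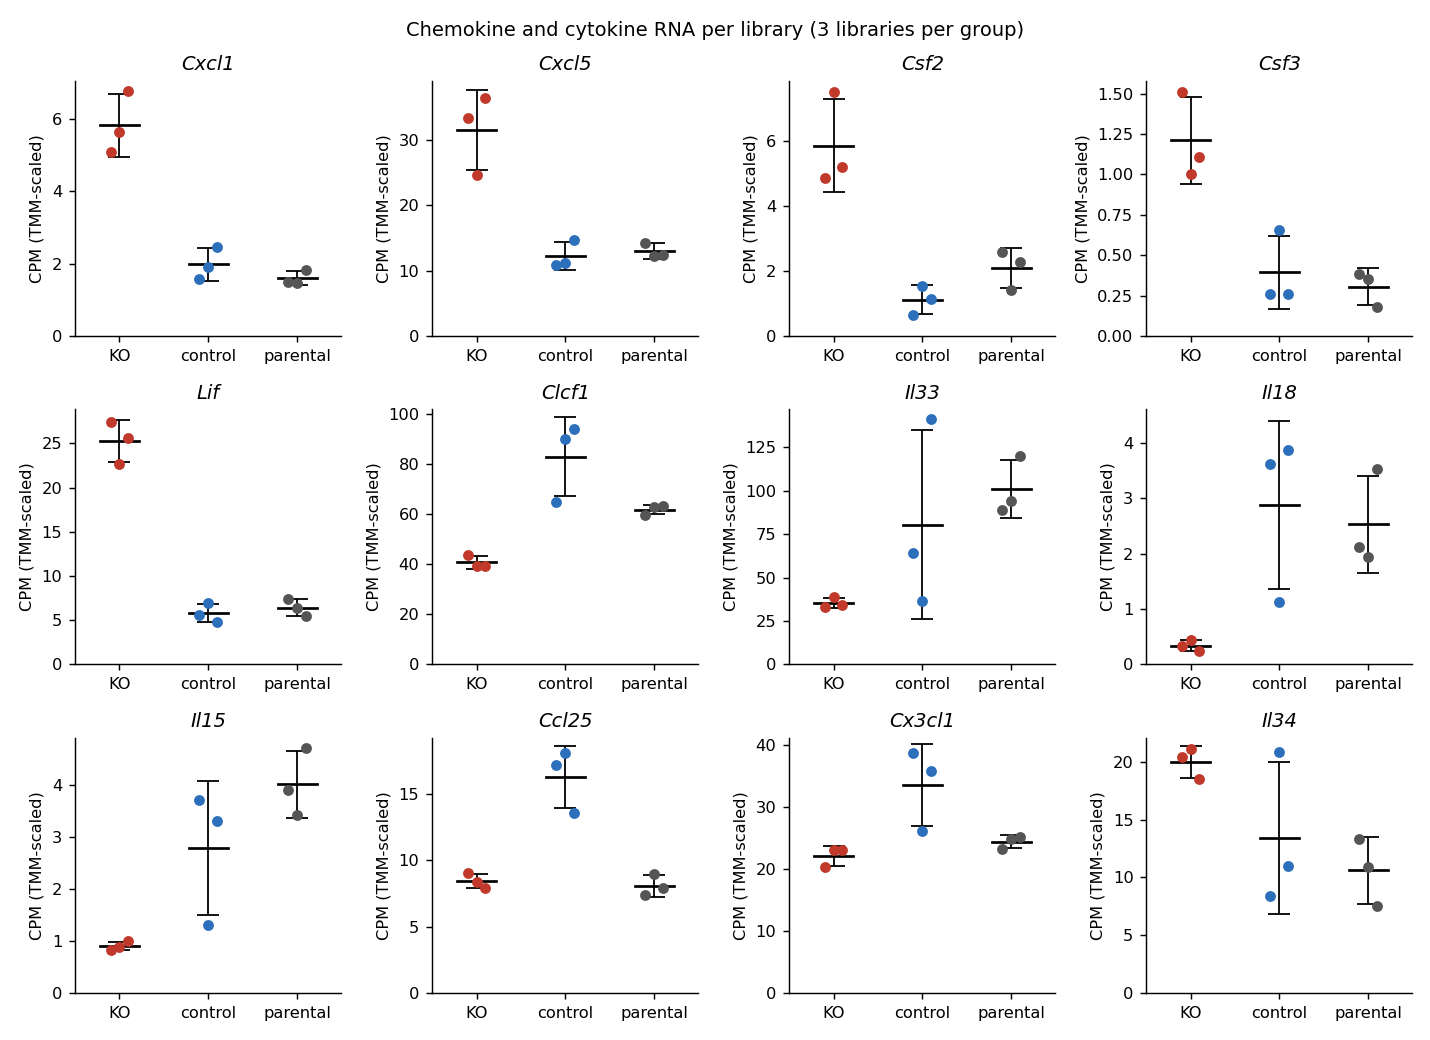
CPM of 12 genes in each library (points), with the group mean (wide bar) and its SD (n = 3), each panel on its own axis from 0. The knockout points of Cxcl1, Cxcl5, Csf2, Csf3 and Lif stand above those of both other groups and the knockout points of Clcf1, Il18 and Il15 below them; for Il33, Il34 and Cx3cl1 the control libraries spread widely.

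The IL-6 family moved in both directions. Lif (ENSMUSG00000034394, chr11:4257557-4272514, plus strand) encodes leukemia inhibitory factor, which signals through Lifr and gp130. Its level was 27.4, 22.7 and 25.6 CPM in the knockout clone, 5.63, 6.9 and 4.83 in the control clone and 7.42, 6.42 and 5.47 in the parental line. The knockout libraries were far above the other 6, which overlapped each other. The rise was 4.37-fold over the control clone (log2 fold change 2.13, SE 0.16, adjusted p = 2.1e-05) and 3.91-fold over the parental line (1.97, SE 0.16, adjusted p = 5.29e-05), and these were the smallest adjusted p-values of any of the 20 genes in those comparisons. The control clone differed from the parental line by -0.16 (SE 0.17, adjusted p = 0.531).

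The 250 bases before the start of Lif, at chr11:4257318-4257567 on the plus strand, are shown because this gene gave the clearest rise and holds a match to each motif searched. Capitals mark the AP-1 motif, TGACTCA at -228 to -222, and the NF-kappaB consensus, GGGACGCCCC at -178 to -169.
Lif: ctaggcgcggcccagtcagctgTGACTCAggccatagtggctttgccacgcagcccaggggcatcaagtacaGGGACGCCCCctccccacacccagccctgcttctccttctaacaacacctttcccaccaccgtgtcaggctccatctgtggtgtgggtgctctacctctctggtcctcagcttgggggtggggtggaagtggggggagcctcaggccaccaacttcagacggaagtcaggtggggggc
The same stretch before the RefSeq starts of Csf2, Il18, Cx3cl1, Il33, Mif and Ccl25 matched neither motif. Of the genes described here, Csf2 had the largest rise over the control clone. Genes with no passing difference between the clones also held matches, among them Csf1 and Ccl20 with 1 to the NF-kappaB consensus and Cxcl10 with 3 to it and 1 to the AP-1 motif.

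Clcf1 (ENSMUSG00000040663, chr19:4214238-4223490, plus strand) encodes cardiotrophin-like cytokine factor, a member of the IL-6 family. It was measured at 43.7, 39.3 and 39.1 CPM in the knockout clone, 64.7, 89.7 and 94 in the control clone and 59.5, 62.6 and 63 in the parental line. The knockout libraries lay below all others and the control libraries above the parental ones. The gene fell by 1.02 on the log2 scale against the control clone (SE 0.13, adjusted p = 0.000305) and by 0.60 against the parental line (SE 0.13, adjusted p = 0.00767). The control clone was 0.42 above the parental line (SE 0.13, adjusted p = 0.0448), a call lost in 12 of 17 alternative fits.

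The 2 expressed genes of the IL-1 family were both lower in the knockout clone. Il33 (ENSMUSG00000024810, chr19:29925114-29960718, plus strand) encodes a nuclear alarmin sensed by St2-bearing lymphocytes and mast cells. Its level was 33.2, 38.8 and 34.5 CPM in the knockout clone, 63.9, 36.5 and 141 in the control clone and 89, 94.2 and 120 in the parental line. The knockout libraries lay below the parental ones, but control library 2 fell inside the knockout range and control library 3 was the highest of all 9. Against the parental line the gene fell by 1.51 on the log2 scale (SE 0.39, adjusted p = 0.0175), a call lost without knockout library 1, knockout library 3 or parental library 3 (highest adjusted p 0.0675). Against the control clone it fell by 1.18 (SE 0.39, adjusted p = 0.035). This call was lost without any one of the knockout libraries, control library 3, parental library 1 or parental library 2, and also with limma voom (-0.97, adjusted p = 0.0788) and with the 2 groups fitted alone (-1.16, adjusted p = 0.0764). Without control library 3 the log2 fold change was -0.51 with adjusted p = 0.0823. The control and parental libraries did not differ by the test (-0.33, SE 0.38, adjusted p = 0.58), but did without control library 3 (-1, adjusted p = 0.00921).

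Il18 encodes an inflammasome-processed cytokine that activates natural killer and T cells. It passed the filter on low counts through the control and parental libraries, with 19 counts over the knockout libraries against 176 in the control clone and 137 in the parental line, or means of 0.34 ± 0.106, 2.88 ± 1.52 and 2.53 ± 0.869 CPM (SD, n = 3). The highest knockout library, at 0.445 CPM, was below the lowest control library, at 1.13, and the lowest parental library, at 1.94. On the log2 scale it fell by 3.06 from the control level (SE 0.54, adjusted p = 0.00156) and fell by 2.86 from the parental level (SE 0.54, adjusted p = 0.00354), the largest falls among the 20 genes in both knockout comparisons. Il18 is a chromosome 9 gene, and over the 748 genes tested on that chromosome the median was -0.53 on the log2 scale in each of those comparisons; what that contributes to the value for Il18 was not tested.

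Il15, whose product sustains natural killer and memory T cells, fell in the same way, from 2.78 ± 1.29 CPM in the control clone and 4.01 ± 0.651 in the parental line to 0.904 ± 0.0822 in the knockout clone (SD, n = 3). The highest knockout library, at 0.993 CPM, was below the lowest control library, at 1.31. Il15 fell by 1.63 on the log2 scale from the control level (SE 0.37, adjusted p = 0.00662) and by 2.14 from the parental level (SE 0.37, adjusted p = 0.00234). The difference of -0.52 between control and parental libraries (SE 0.33, adjusted p = 0.298) did not pass. Mif had overlapping libraries in all 3 groups, with means of 115 ± 4.08, 102 ± 13.3 and 120 ± 14 CPM (SD, n = 3) and adjusted p between 0.17 and 0.703. Without control library 3 it was lower in the control clone than the parental line (log2 fold change -0.33, adjusted p = 0.0354).

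Control library 2 was the lowest of its clone for Il33, Il18, Il15, Cx3cl1, Cxcl16, Ccl20 and Mif, as it was for Krt19. It was the highest of its clone for Csf1, Csf2, Csf3, Il34, Lif, Cxcl3, Cxcl10, Ccl9, Ccl25 and Ccl27a. For Cxcl1, Cxcl5 and Clcf1 it lay between the others. Without it, the comparison of the clones called 13 genes rather than 11, with Il34 added among the higher and Ccl20 among the lower. Over all genes tested the count moved from 5643 to 7204, or from 42.9% to 53.5%. The rises of Cxcl1, Cxcl5, Csf2 and Lif and the falls of Il15 and Clcf1 each passed in both knockout comparisons without that library.

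AU-rich heptamers in the 3′ untranslated region, TATTTAT in DNA letters, are a known feature of short-lived cytokine RNAs, and were counted here in the longest annotated 3′ untranslated region of each gene. Of 11560 tested genes with such a region, 30.4% held at least 1 and 3.88% held 3 or more. Csf2 held 9 in 317 bases, Cxcl1 held 6 in 592, Lif held 5 in 3180 and Clcf1 held 4 in 922. Csf3 and Cxcl3 held 2 each, and Cxcl5, Cx3cl1, Ccl20 and Csf1 held 1 each. Il18, Il33, Il15, Ccl25, Cxcl16, Il34, Ccl27a and Mif held none. Of the 19 silent genes, 11 held none and Cxcl12 and Il6 held 1 each, while Tnf held 8, Cxcl2 held 7, Il11 held 6, Il23a held 5 and Il1a and Il1b held 3 each. The region's median length over tested genes was 1180.5 bases, and longer regions have more room for a match.

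Receptors for these ligands were mostly absent from the cells: of 44 receptor genes, 12 reached 1 CPM and 12 had no count in any library. Of the 13 tested, the knockout clone had 3 higher and 7 lower when set against the control clone, and 0 higher and 7 lower when set against the parental line. The control clone had 1 higher and 3 lower than the parental line. Over all genes tested the shares were 18.7% higher and 24.2% lower, 13.1% and 18.3%, and 10.4% and 11% in these comparisons in that order. Il1r1, the signalling receptor for IL-1, was measured at 20.1, 19.9 and 16.8 CPM in the knockout clone, 51.2, 30.6 and 65 in the control clone and 41.7, 44.4 and 49.4 in the parental line. The knockout libraries were below all others (log2 fold change -1.37, SE 0.23, adjusted p = 0.0013 and -1.26, SE 0.23, adjusted p = 0.00322). The second TNF receptor gene, Tnfrsf1b, fell by 1.45 from the control level (SE 0.21, adjusted p = 0.000566) and by 0.86 from the parental level (adjusted p = 0.0128).

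Receptor chains for Lif and related cytokines were chosen for mention after their values were seen. Lifr had no count in the knockout libraries, stood at 0.0436, 0.0595 and 0.0525 CPM in the control clone and at 1.16, 1.41 and 0.824 CPM in the parental line. Every library of either clone was below the parental ones. Osmr, the oncostatin M receptor chain, had 1 count over the knockout libraries, against 1.2 ± 0.32 CPM in the control clone and 0.847 ± 0.349 in the parental line (SD, n = 3). Neither reached a testable level in the knockout clone, so no test is given for them. The shared chain Il6st was abundant in all groups, at 101 ± 6.49, 83.1 ± 8.9 and 85.4 ± 2.34 CPM. Il6ra differed in direction between the references, at 3.54 ± 0.139 CPM in the knockout clone, 2.21 ± 0.698 in the control clone and 5.89 ± 0.751 in the parental line. It was 0.66 above the control clone (adjusted p = 0.0448) and 0.73 below the parental line (log2 fold change -0.73, adjusted p = 0.0335), and the control clone was the lowest (log2 fold change -1.40, adjusted p = 0.00341 against the parental line).

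Of 12 antagonists, decoys and processing enzymes, 8 were tested. The knockout clone had 1 higher and 6 lower set against the control clone, and 1 higher and 3 lower set against the parental line. The control clone had 4 higher and 1 lower than the parental line. Over all genes tested 42.9%, 31.4% and 21.4% were called in these comparisons. The gene with the largest change was Il1rn, encoding the IL-1 receptor antagonist. It was measured at 4.49, 3.56 and 4.73 CPM in the knockout clone, 131, 53.4 and 231 in the control clone and 90.1, 94.5 and 127 in the parental line. The knockout libraries lay far below all others, and the control libraries spread most (log2 fold change -5.02, SE 0.51, adjusted p = 8.04e-05 and -4.60, SE 0.50, adjusted p = 0.000198). Its agonists Il1a and Il1b were silent in all groups.

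Of 30 transcription factors, feedback inhibitors and RNA decay factors, 28 were tested. The knockout clone had 10 of them higher and 7 lower set against the control clone, and 9 higher and 4 lower set against the parental line. The control clone had 5 higher and 5 lower than the parental line. The shares over all genes tested were again 42.9%, 31.4% and 21.4%. The AP-1 subunit Jun was measured at 77.2, 86.7 and 67.9 CPM in the knockout clone, 11.4, 12.3 and 11.1 in the control clone and 32.9, 34.2 and 31.2 in the parental line. The 3 groups did not overlap, with the knockout clone highest and the control clone lowest (knockout against control 2.74 on the log2 scale, SE 0.11, adjusted p = 5.32e-07; knockout against parental 1.24, SE 0.10, adjusted p = 4.8e-05). Its partner Fos was 1.71 above the control clone (SE 0.28, adjusted p = 0.00122) but lower than in the parental line (-0.80, SE 0.26, adjusted p = 0.0439).

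Among genes of the NF-kappaB system, Nfkb2 was higher in the knockout clone, at 91.1 ± 3.99 CPM against 56.9 ± 10.3 in the control clone and 45.4 ± 3.28 in the parental line (SD, n = 3). The level was 2.01-fold the parental one (adjusted p = 0.000382) and 1.6-fold that of the control clone (adjusted p = 0.0018). The feedback inhibitor Tnfaip3 stood at 132 ± 3.11, 68.2 ± 22.8 and 66.5 ± 6.12 CPM and passed in both (adjusted p = 0.00333 and 0.00412), whereas the feedback inhibitor Nfkbia passed against the parental line alone (0.43, adjusted p = 0.0392; against the control clone 0.16, adjusted p = 0.375). Nfkbiz, which encodes a nuclear cofactor of NF-kappaB, went the other way, falling by 1.23 against the control clone (SE 0.08, adjusted p = 9.16e-06) and by 0.50 against the parental line (SE 0.08, adjusted p = 0.00169).

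Proteins of the Zfp36 family bind AU-rich RNA and promote its decay. Zfp36 was measured at 12.4, 15.1 and 13.9 CPM in the knockout clone, 12.6, 7.97 and 17.3 in the control clone and 31.6, 32.4 and 48.1 in the parental line. Both clones were below the parental line (log2 fold change -1.44, SE 0.26, adjusted p = 0.00294 for the knockout clone and -1.56, SE 0.26, adjusted p = 0.00351 for the control clone) and overlapped each other. Zfp36l1 was higher in the knockout clone, at 61.7 ± 4.7 CPM against 32.9 ± 6.21 and 28.5 ± 1.14 (SD, n = 3; log2 fold change 0.91, adjusted p = 0.000563 and 1.11, adjusted p = 0.000328). Zfp36l2, at 369 ± 6.8, 366 ± 75 and 404 ± 12.8 CPM, passed in no comparison.

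**Figure D4:**
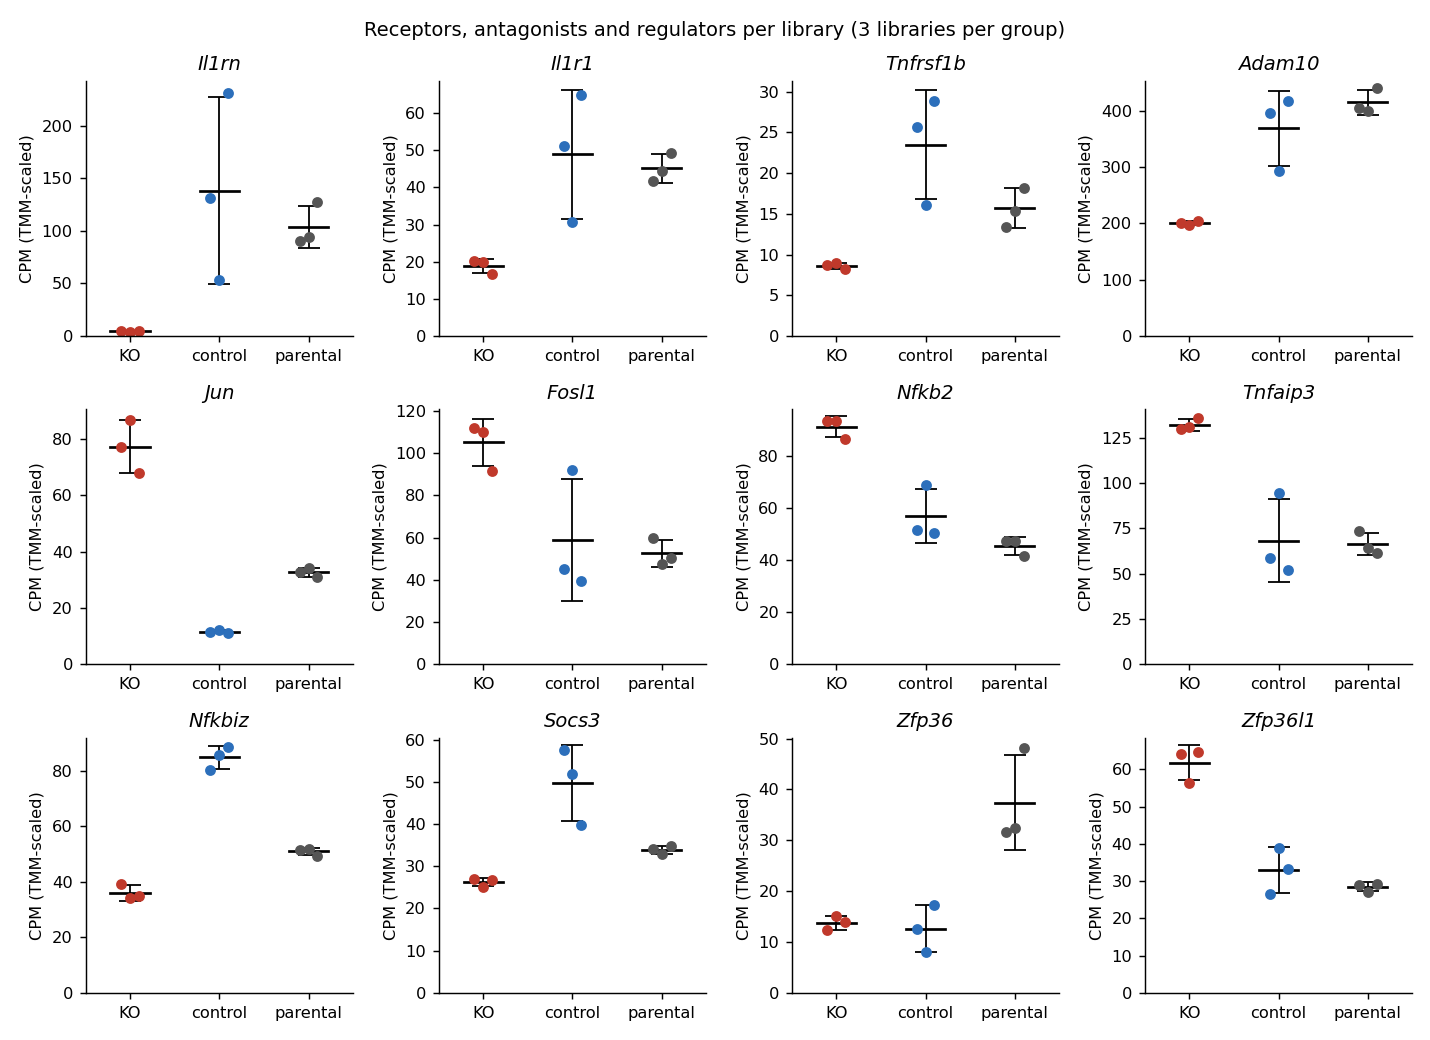
CPM of 12 receptor, antagonist and regulator genes in each library (points), with group mean (wide bar) and SD (n = 3), each panel on its own axis from 0. Il1rn, Il1r1, Tnfrsf1b and Nfkbiz are lowest in the knockout clone, as is Adam10, while Jun, Nfkb2, Tnfaip3 and Zfp36l1 are highest there, and Zfp36 is highest in the parental line.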

How the data were processed

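Libraries of mRNA (KAPA mRNA HyperPrep kit) were sequenced from 9 samples. The table holds each gene's expected count, which the authors deposited as whole numbers. The submitters' processing notes name STAR 2.5.2, RSEM 1.3.0, DESeq2 1.10.1 and GRCm38; the annotation release and strand setting are not given in the sources used here. Symbols and exon lengths came from GENCODE M21, which matched 54809 of 54838 identifiers. Genes passing filterByExpr (minimum count 10, minimum total 15; 13153 genes) were fitted in edgeR 4.0.16 (R 4.3.3) with TMM scaling and group as the term over all 9 libraries, tested by glmQLFTest and adjusted by Benjamini-Hochberg within each comparison; calls were at adjusted p under 0.05. The SE was derived from the fold change and the F statistic. Scripts were tested on simulated data. Alternatives used RLE or total-count scaling, other filters, DESeq2 1.42.0, limma 3.58.1 voom, a replicate block, the compared groups alone, and each library left out.

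The genes, pathway lists and motifs were chosen with earlier results of these data known. All 37 genes are named; values per library, fold changes and SE were to be given for those reaching 5 CPM and called with a change of 1 or more on the log2 scale, others as mean ± SD, and listed pathway genes by the same limits. Fold changes of the genes outside these limits, values per library of Cxcl10 and Il34, and the pathway genes under them, Lifr, Osmr, Il6st and Il6ra among these, were added after their values were seen.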

Additional observations from a re-analysis of the deposited data

How the results depend on the processing

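Among the 9 libraries, tested genes held at least 99.88% of counts, and genes with few counts per group, such as Csf3 and Il18, are limited by depth. Scaling by RLE or total counts, DESeq2 and dropping the filter kept the number of called genes within 1.5 times in both knockout comparisons. A mean of at least 5 CPM left 9 of the genes to test, of which 6 were called between the clones and 4 against the parental line (45.9% and 32.7% of all genes tested then). Control against parental was the least stable of the 3 comparisons: its 4 calls became 2 under total-count scaling, a 5 CPM mean (of 9 tested), the replicate block, or a log2 fold change of at least 1, and 1 under voom or with only the compared groups fitted. Over all genes tested, control against parental called 21.4% in the main fit. The share was 22%, 22.2% and 18.9% under total-count scaling, a 5 CPM mean and the replicate block. It was 21.1% under voom and 11.8% with only the compared groups fitted. The replicate block gave 12 calls in each knockout comparison, beside 42% and 30% of all genes tested. Same-numbered libraries correlated at -0.134 to 0.212 over 9 pairs, 1 of 9 libraries correlated best with its own number, and the numbers were not taken as pairs. With 1 library left out, calls ranged from 9 to 13, 8 to 12 and 1 to 4 in the comparisons of knockout with control, knockout with parental and control with parental, and over all genes (5643, 4131 and 2814) from 4301 to 7204, 2515 to 5693 and 1472 to 4102. The shares of all genes called in those fits were 32.1% to 53.5%, 18.7% to 42.7% and 11% to 30.8% in the same order. Genes at 1 CPM numbered 18 or 19. Over all genes, requiring a log2 fold change of at least 1 left 1843, 1392 and 851, and fitting the compared groups alone gave 6840 for knockout against parental, where 11 of 19 cytokine genes tested were called beside 53.5% of all genes, and 1525 for control against parental. Total-count scaling moved the share of lower calls for control against parental from 51.3% to 61.2%. Reversals touched only uncalled differences, and Cxcl10 alone outside the fits with 1 library left out. With 1 library left out, the log2 fold changes concerned ranged as follows. For knockout against control, Cxcl3 ran from -0.36 (without knockout library 3; -0.23 without control library 1) to 0.27, Cxcl10 from -0.53 to 0.64 (without control library 2; 0.03 without knockout library 1 and under voom) and Csf1 from -0.43 to 0.07 (without control library 2). For knockout against parental, Csf1 ran from -0.07 (without knockout library 2) to 0.3 and Mif from -0.11 to 0.04 (without parental library 3). For control against parental, Cxcl5 ran from -0.23 to 0 (without control library 1), Ccl9 from -0.51 to 0.24 (without control library 3) and Il33 from -1 to 0.01 (without control library 2). Csf3 ran from -0.23 to 0.54 and Il34 from -0.14 to 0.58, both lowest without control library 2, and Il18 from -0.06 (without control library 3; 0 without control library 1) to 0.57. The cause was not tested.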
